A study of Mus musculus with 10 samples.

Results

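The 9 genes described here encode secreted proteins of the artery wall: the elastic fibre proteins Eln, Fbln2, Fbln5 and Ltbp4, the calcification inhibitor Mgp, the extracellular chaperone Clu, the secreted protease Htra1, the short-chain collagen Col8a1 and the secreted serpin Serpinf1. They were chosen by their UMI counts, which earlier work on these same data had shown to be high in arterial endothelial cells, so their levels by cell class are given as a description, without a test. A UMI (unique molecular identifier) marks 1 captured transcript. All 9 were found among the 26228 gene symbols used.

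Endothelial cells (ECs) had been sorted from femur and tibia of C57BL/6 mice carrying Cdh5-mTnG, a reporter whose Cdh5 promoter marks endothelium with membrane tdTomato and nuclear GFP. All 10 libraries came from such mice, were depleted of blood lineages and held only cells positive for both colours at the sort. There were 2 libraries for each of 5 groups: 3-week-old juveniles (males and females), 12-week-old adult females, 75-week-old aged females, and 12-week-old females treated with parathyroid hormone (PTH), which builds bone and was given daily, or with alendronate, a bisphosphonate that blocks bone resorption and was given every other day. Bones of several mice of a group were pooled, and the paper states that the single-cell sequencing was done once per group. The 2 libraries of a group are thus not known to be 2 animals or 2 pools. The p-values measure only the spread between libraries, which may be technical, and not the spread between animals.

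Of 47466 cells, 46283 had 500 to 6000 genes and under 25% mitochondrial UMIs. Library totals ran from 10653583 to 28419323 UMIs and medians per cell from 3075 to 5149. Cells were clustered with the 9 genes held out and clusters were named by markers. The arterial class (Gja4, Gja5, Bmx, Sema3g) held 6119 cells, the type R class led by Timp4 and Aqp7 2724, the type R class led by Tagln and Vwf 1982, the metaphyseal class (Ramp3, Aplnr) 8355 and the sinusoidal class (Stab2, Vcam1) 19769. Type R cells are capillary ECs that the study places between arteries and remodelling bone. The Tagln/Vwf class also held UMIs of lymphatic markers, and the 5 on the list (Ccl21a among them) summed to 199 to 957 CPM (UMIs of a gene scaled by the total of its class) in 9 libraries and to 6906 in 1 juvenile library. A shallow cluster of 4032 cells with arterial and metaphyseal markers alike stayed unnamed. The 2 aged libraries stood apart: their tables alone held symbols beginning with U, with 1.52% and 1.53% of their UMIs (dropped here), and their median mitochondrial shares were 2.31% and 2.42% against 1.15% to 1.43% elsewhere. Age and the making of these tables cannot be told apart. The series names more than 1 version of the 10x chemistry but not which library used which, and the part of the chemistry in any comparison was not tested.

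Elastic fibres let an artery recoil after each heartbeat. Tropoelastin, the product of Eln, is laid on a scaffold of fibrillin microfibrils with the help of fibulins such as those of Fbln5 and Fbln2, and the latent TGF-beta binding protein of Ltbp4 takes part in that assembly. Matrix Gla protein, the product of Mgp, depends on vitamin K and keeps the artery wall free of mineral.

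In mouse build GRCm38 (GENCODE M21, the assembly of the deposited mm10 tables), Eln spans chr5:134702593-134747323, Fbln5 chr12:101746565-101819055, Mgp chr6:136872435-136875823, Serpinf1 chr11:75409769-75422701, Col8a1 chr16:57624258-57754737 and Ltbp4 chr7:27305136-27337692, all on the minus strand. Fbln2 spans chr6:91212455-91272540, Clu chr14:65968483-65981547 and Htra1 chr7:130936111-130985660, all on the plus strand. An exon of Eln overlaps one of Gm30003 on the other strand, and Gm30003 is not among the symbols counted. The strand setting of the counting is not given in the sources used here. Whether reads of Gm30003 were counted as Eln thus cannot be told. RefSeq promoter windows were used for Fbln2, Fbln5, Ltbp4, Htra1, Col8a1 and Serpinf1. Fbln5 and Serpinf1 are printed because their arterial levels stood clear of every other EC class, while the windows shown differ in letters. Each run is the 250 bases before a RefSeq start in GRCm38.p6, read 5′ to 3′ on the minus strand. Capitals mark matches on either strand to GGGCGG (GC box) or TGGGAA (the core of RBPJ sites, RBPJ being the DNA-binding factor of Notch signalling).
Fbln5, chr12:101819120-101819369: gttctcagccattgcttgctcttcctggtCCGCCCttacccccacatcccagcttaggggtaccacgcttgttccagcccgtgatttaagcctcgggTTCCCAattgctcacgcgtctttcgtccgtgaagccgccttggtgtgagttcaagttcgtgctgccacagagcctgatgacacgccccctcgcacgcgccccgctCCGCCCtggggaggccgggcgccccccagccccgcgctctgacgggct
Serpinf1, chr11:75422624-75422873: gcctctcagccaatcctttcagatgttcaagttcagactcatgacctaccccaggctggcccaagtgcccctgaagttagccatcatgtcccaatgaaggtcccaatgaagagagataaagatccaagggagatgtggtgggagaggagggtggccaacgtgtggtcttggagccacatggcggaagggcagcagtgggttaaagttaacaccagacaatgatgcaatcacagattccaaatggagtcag
The Fbln5 window held 2 GC boxes and 1 TGGGAA match at a GC content of 65.2%. The Serpinf1 window held neither motif, and neither window held the TATA box (TATAAA), the E-box searched (CACGTG) or the AP-1 site (TGACTCA). The GC content of the Serpinf1 window was 51.6%. Fbln5 has a further RefSeq start, whose window (chr12:101818485-101818734) held none of these motifs at a GC content of 49.6%. Of all 32851 promoter windows of this length, 32.7% held the GC box, 21.6% the RBPJ core, 12.4% the TATA box, 6.02% the E-box and 4.46% the AP-1 site, on either strand. Of the 9 windows of the 6 genes (Ltbp4 and Fbln5 have several starts), 7 held the GC box and 1 the RBPJ core, but 2 of the 3 Ltbp4 windows overlap for most of their length and share GC boxes.

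The mean levels of 8 of the 9 genes were highest in arterial cells among the 5 EC classes, and Eln was the exception. Levels are in CPM, the UMIs of the gene scaled by all UMIs of the same sum over the cells of a class in a library, and are given as mean ± SD over 10 libraries of all groups. Fbln5 stood at 1595 ± 232 in arterial and 166 ± 46.1 in type R Tagln/Vwf cells, the next class, and the ranges did not overlap. Htra1, which cleaves matrix proteins, stood at 186 ± 58.7 in arterial and 30.3 ± 14.6 in Tagln/Vwf cells, again without overlap. Col8a1 was at 212 ± 57.1 in arterial and 31.2 ± 20.3 in type R Timp4/Aqp7 cells. Serpinf1, the gene of pigment epithelium-derived factor, was at 279 ± 99.6 in arterial and 5.75 ± 3.31 in metaphyseal cells, the latter below its mean of 35.9 in haematopoietic cells, so that no ratio is given. For these 4 genes the arterial class was the highest in 10 of 10 libraries and its range touched no other.

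**Figure D1:**
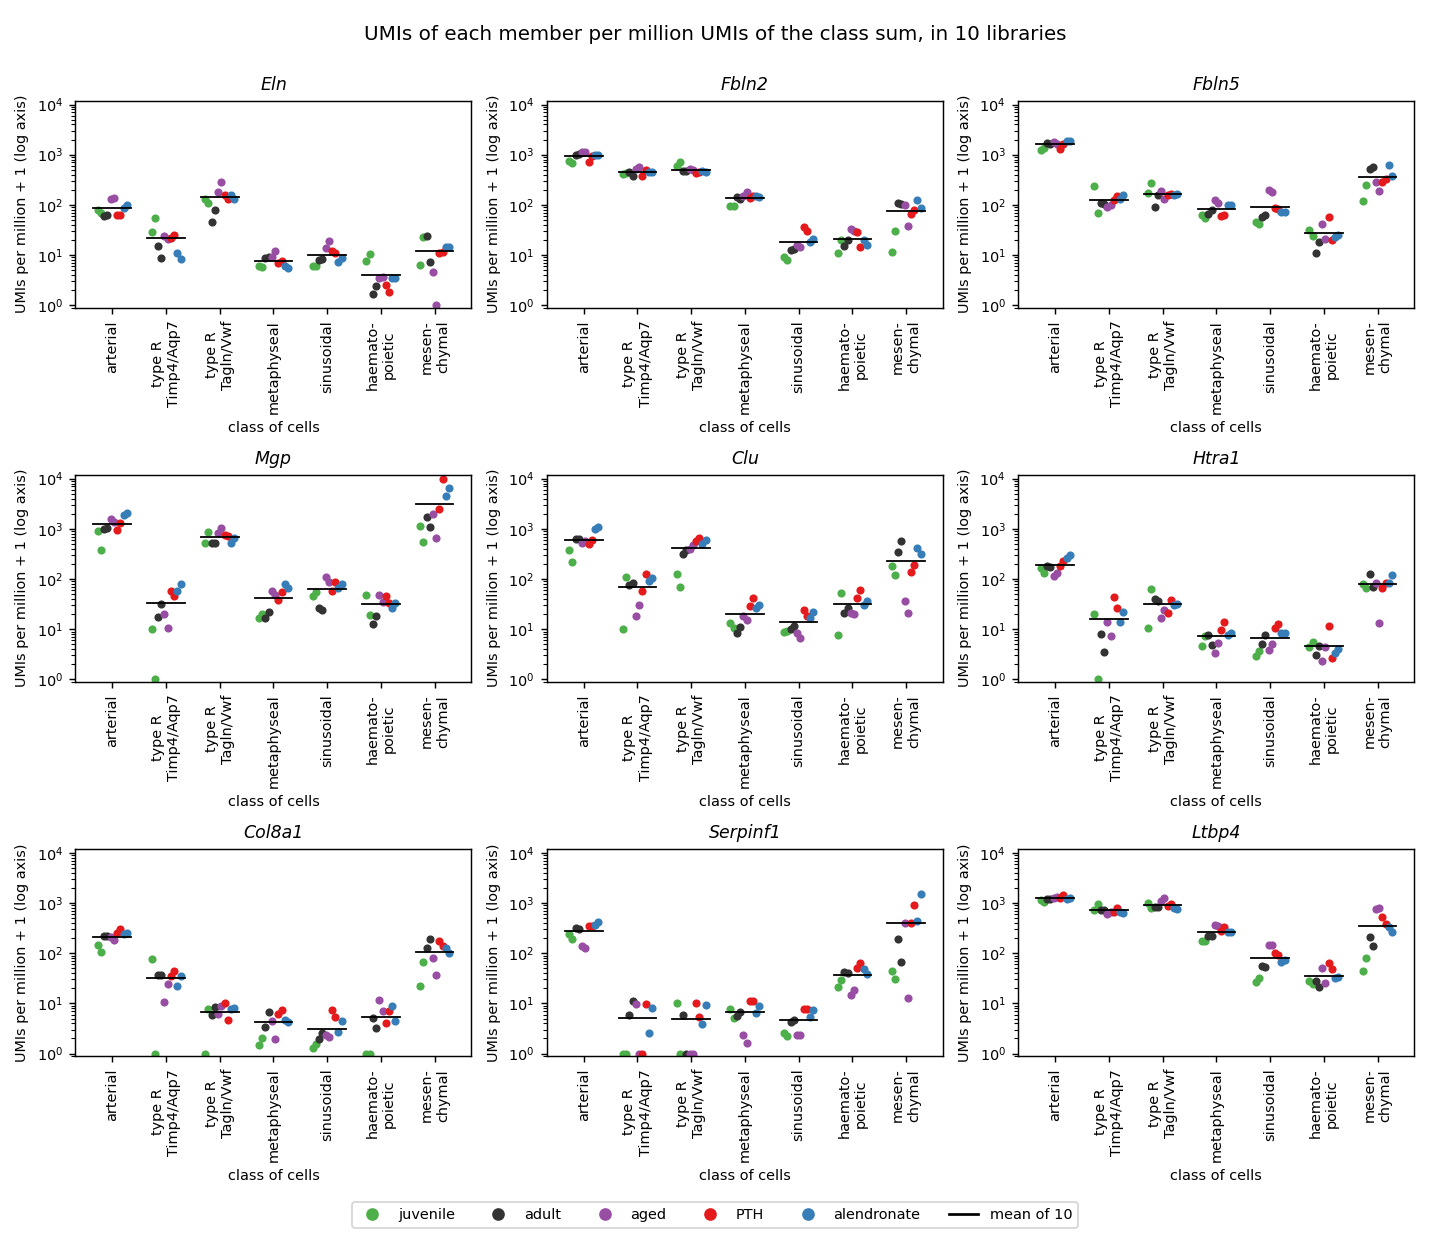
CPM of each of the 9 genes in the class sum (log axis, 1 added) in 5 endothelial classes and in the haematopoietic and mesenchymal cells of the same sort. Each point is 1 library, coloured by group, and the bar is the mean of 10 libraries. Among the endothelial classes Fbln5, Htra1, Col8a1 and Serpinf1 stand clear in arterial cells and Eln is highest in type R Tagln/Vwf cells, while Mgp reaches 9859 in mesenchymal cells.

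The other 5 genes were shared with type R cells. Eln was at 140 ± 63.9 in Tagln/Vwf, 83.7 ± 28.2 in arterial and 20.98 ± 13.8 in Timp4/Aqp7 cells, and was higher in Tagln/Vwf than in arterial cells in 9 of 10 libraries, although these 2 ranges overlapped. Mgp was at 1237 ± 493 in arterial and 694 ± 185 in Tagln/Vwf cells, but at 32.1 ± 25.8 in Timp4/Aqp7 cells, below its sinusoidal level of 62.8 ± 27.1. Clu was at 608 ± 252 in arterial, 406 ± 195 in Tagln/Vwf and 69.9 ± 40.6 in Timp4/Aqp7 cells. The arterial and Tagln/Vwf ranges of Mgp and of Clu overlapped. Between the 2 kinds of type R cells the ranges of Mgp stood apart. Those of Eln and Clu overlapped, although the Tagln/Vwf level was the higher in 10 of 10 libraries for Eln and in 9 of 10 for Clu.

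Fbln2 and Ltbp4 declined in steps from arteries to sinusoids. Ltbp4 went from 1240 ± 105 in arterial cells to 929.7 ± 162 in Tagln/Vwf, 718 ± 109 in Timp4/Aqp7, 264 ± 67.3 in metaphyseal and 78.8 ± 42.8 in sinusoidal cells. Its first 3 levels overlapped in range with their neighbours, although arterial cells were above Tagln/Vwf cells in 10 of 10 libraries. Fbln2 went from 934 ± 159 through 506 ± 82.9, 454 ± 61.4 and 136 ± 25.3 to 16.9 ± 9.20 in the same order of classes, and its 2 type R levels did not differ beyond their spread. At the low end, neighbouring ranges overlapped for each of the other 7 genes.

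Cells of other kinds in the sort give a background. Haematopoietic cells (1396) had means from 3.08 for Eln to 35.9 for Serpinf1. Their largest cluster also scored for megakaryocyte markers, and a finer clustering (resolution 0.8) named a cluster of 173 cells megakaryocyte. Which of the 9 transcripts such cells hold themselves was not tested. Sinusoidal means were below the haematopoietic ones for Fbln2, Clu, Col8a1 and Serpinf1. Mesenchymal cells (495) held some of these genes at arterial levels or above, with 3060 ± 3043 for Mgp and 402 ± 485 for Serpinf1. In the arterial sums the 9 mesenchymal markers added up to 14.1 to 32.6 CPM over all groups, and Lum, Postn or Prrx1 was at 0 in each group. The part of mesenchymal cells in the arterial levels was not tested.

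At equal depth the levels could be read per cell. After thinning each cell to 1000 UMIs, which kept 6053 arterial cells, Fbln5 had a UMI in 72.0% of arterial cells (95% exact binomial interval 70.9 to 73.1, counting error only). The share was 66.6% for Ltbp4, 59.2% for Fbln2, 31.9% for Clu, 28.4% for Mgp, 21.6% for Serpinf1, 19.0% for Col8a1, 17.0% for Htra1 and 7.68% for Eln. In haematopoietic cells it ran from 0.0729% for Eln to 4.08%. Before thinning, median UMIs were 3593 in arterial and 5316.5 in haematopoietic cells and the arterial shares ran from 20.9% for Eln to 93.5% for Ltbp4. A thinned arterial cell held a median of 3 of the 9 genes, and 4.79% held none. None was held by 81.1% of sinusoidal, 62.3% of metaphyseal, 31.7% of Timp4/Aqp7 and 14.8% of Tagln/Vwf cells.

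Within the arterial class, cells with a Mgp UMI held each of the other genes more often than cells without one. Of 1718 thinned arterial cells with a Mgp UMI and of those without one, 62.7% and 19.8% had a Clu UMI. These shares were 38.0% and 8.65% for Htra1, 15.5% and 4.57% for Eln, 39.5% and 14.5% for Serpinf1 and, closer together, 75.5% and 63.1% for Ltbp4 and 23.0% and 17.5% for Col8a1. Serpinf1 was found in 46.3% of cells with and 16.6% of cells without a Htra1 UMI. These shares pool the cells of all 10 libraries, whose levels of the genes differ. A finer clustering (resolution 0.8) split the class into a part led by Gkn3 (1657 cells, 27.1%) and a part led by Gja4, Igfbp3 and Cxcl12 (4328 cells, 70.7%). The 9 genes were held out of that clustering too, but both parts were cut from the same cells and were not tested against each other. Mgp stood at 4655 ± 1191 CPM in Gkn3-led and 302 ± 158 in Igfbp3-led cells, a ratio of 15.4. The ratio was 5.98 for Clu (1774 against 297), 5.05 for Eln (232 against 45.9) and 3.70 for Htra1 (454 against 123). It lay between 1.38 and 1.94 for Ltbp4, Fbln5, Col8a1, Fbln2 and Serpinf1. Each of the 9 was higher in Gkn3-led cells in 10 of 10 libraries. Bmx, an arterial kinase gene, was 2.50 times as high there, while the ratios of Cxcl12 and Igfbp3 were 0.365 and 0.224.

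**Figure D2:**
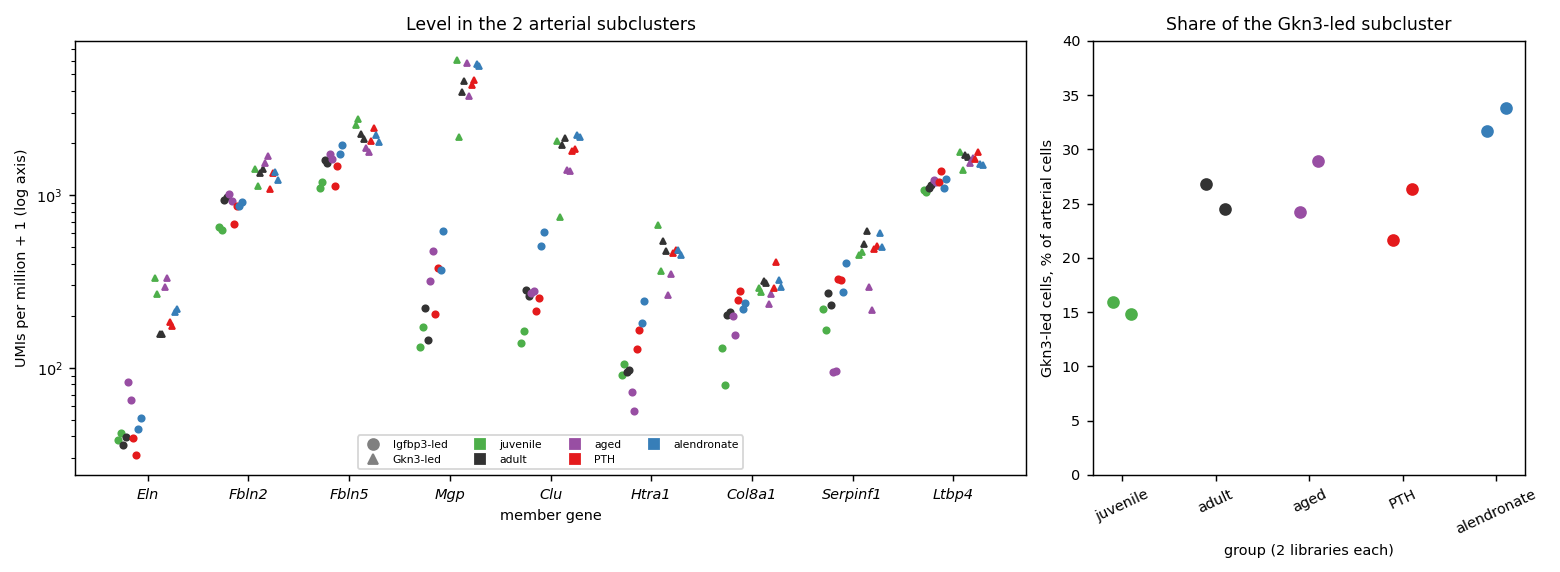
Left, CPM (log axis, 1 added) of the 9 genes in Igfbp3-led (circles) and Gkn3-led (triangles) arterial cells, 1 point per library, coloured by group. Right, Gkn3-led cells as a percentage of arterial cells in each library, from 14.8% in a juvenile to 33.8% in an alendronate library.

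Gkn3-led cells made up 15.9% and 14.8% of arterial cells in the juvenile, 26.8% and 24.5% in adult, 24.2% and 28.9% in aged, 21.7% and 26.3% in PTH and 31.7% and 33.8% in alendronate libraries. The juvenile libraries thus lay below and the alendronate libraries above all others. Because this share differed between groups, the comparisons of the whole arterial class are followed below by those within each part, which were added after the data had been seen.

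Over the 50 class sums (5 classes in 10 libraries), Fbln2 and Ltbp4 had the most similar profiles of any 2 of the 9 genes (Pearson r = 0.973 on log2 levels) and Eln and Serpinf1 the least similar (0.384). Among 6649 genes with a mean of at least 20 CPM, Fbln2 was next most like Ebf1 (0.972) and Lysmd2 (0.943), and Ltbp4 next most like Ebf1 (0.960) and Ace (0.946). Eln was most like the fibrillin gene Fbn1 (0.923), then Itgb4 (0.919) and Myof (0.890). Mgp was most like Rfk (0.954), Pir (0.906) and Itgb4 (0.874), and Clu most like S100a4 (0.944), Slc27a3 (0.941) and Fam69a (0.926). Fbln5 was followed by Pcsk5 (0.937), Nebl (0.932) and Cdk19 (0.932), and Htra1 by Bmx (0.933), Fbln5 (0.926) and Pcsk5 (0.897). Col8a1 was most like the arterial connexin gene Gja5 (0.963), then Tmem100 (0.952) and Car7 (0.935), and Serpinf1 most like Pcsk5 (0.968), Egfl8 (0.958) and Gja5 (0.934). The points share libraries and classes, so these values describe class profiles only.

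The groups were next compared within each class by edgeR's quasi-likelihood test on the sums, with Benjamini-Hochberg adjustment over all genes tested and a call at an adjusted p under 0.05. Log2 fold changes are against adult, and all 4 comparisons share the adult libraries. In arterial cells 11176 genes were tested, the 9 among them.

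Juvenile arterial cells had lower levels of 6 of the 9 genes and higher levels of none, with 14.5% of all genes called in this comparison. The median log2 fold change was -0.48 over the 9 and 0.00 over all genes. Clu had 385 and 220.1 CPM in the juvenile and 615 and 639 in the adult libraries (log2 fold change -1.05, SE 0.12, adjusted p = 8.09e-08). Col8a1 had 146 and 103 against 224 and 221 (log2 fold change -0.84, SE 0.12, adjusted p = 8.49e-06). For both genes the groups did not overlap. Mgp had 895 and 384 against 989 and 1038 (log2 fold change -0.66, SE 0.17, adjusted p = 0.00517), so 1 juvenile library was close to adult, and the call was lost without juvenile replicate 2 (log2 fold change -0.17). Fbln2 had 751 and 680.3 against 988 and 1029 (log2 fold change -0.48, SE 0.08, adjusted p = 6.48e-05). Fbln5 had 1255 and 1334 against 1683 and 1602 (log2 fold change -0.33, SE 0.08, adjusted p = 0.00247), and its call was lost without juvenile replicate 1 (log2 fold change -0.29). Serpinf1 had 245 and 192 against 312 and 302 (log2 fold change -0.48, SE 0.10, adjusted p = 0.000719), a call lost without juvenile replicate 2 (log2 fold change -0.31). All 6 genes lay below the adult range in both juvenile libraries. Eln (77.9 and 67.1 against 58.5 and 60.7), Htra1 (162 and 130 against 184 and 169.6) and Ltbp4 (1155 and 1052 against 1202 and 1209) did not pass the test, with log2 fold changes of 0.29, -0.27 and -0.11. Juvenile libraries came from both sexes, which cannot be told apart from age here.

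The juvenile calls of Clu, Col8a1, Fbln2, Fbln5, Serpinf1 and Mgp were kept in 25, 24, 24, 21, 20 and 19 of 25 alternatives. Without integration Fbln5 was at -0.13, Serpinf1 at -0.23 and Mgp at -0.37, and with classes from marker scores they were at -0.11, -0.18 and -0.32, none of them called. By DESeq2 the call of Mgp was lost. Sums of marker lists of other cells moved in the same juvenile sums, though not each listed gene is particular to its class. Over 10 libraries the arterial means of the Timp4/Aqp7 list were 975.8 CPM for Gpihbp1 and 683.8 for Rbp7, against 15.8 for Timp4 and 14.1 for Aqp7. Rbp7 had 499.8 in Timp4/Aqp7 cells. Of the mural list Kcnj8 was highest in arterial cells, at 38.4, and it had 593.5 in sinusoidal and 353.6 in metaphyseal cells. The 6 Timp4/Aqp7 markers summed to 1610 and 1665 CPM in adult and 2581 and 2796 in juvenile libraries, the 6 metaphyseal markers to 274 and 306 in adult and 509.9 and 698 in juvenile, and the 7 mural markers to 99.8 and 144 in adult and 45.8 and 70.2 in juvenile, with Acta2, Pdgfrb, Notch3 and Cspg4 at 0 in juveniles. The 10 haematopoietic markers summed to 45.8 and 48.7 in adult and 6.29 and 8.02 in juvenile. Their part in the juvenile results was not tested.

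Within Igfbp3-led cells 4 of these 6 genes were lower in juveniles, Col8a1 by 0.99, Clu by 0.83, Fbln2 by 0.55 and Fbln5 by 0.43 on the log2 scale, with 13% of all genes called there. Mgp, at -0.26 (adjusted p = 0.614), and Serpinf1, at -0.39, did not pass there. Within the 36 and 33 Gkn3-led cells of the juvenile libraries Clu was called as lower (log2 fold change -0.56), with 2062 and 750 CPM against 1960 and 2139 in adult, so that replicate 1 lay within the adult range, and Eln, the elastin gene, as higher (log2 fold change 0.92, adjusted p = 0.0119). Eln had 332 and 266 CPM in juvenile and 156 and 155 in adult Gkn3-led cells. Mgp was at -0.08 there and did not pass, and 2.18% of all genes were called.

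**Figure D3:**
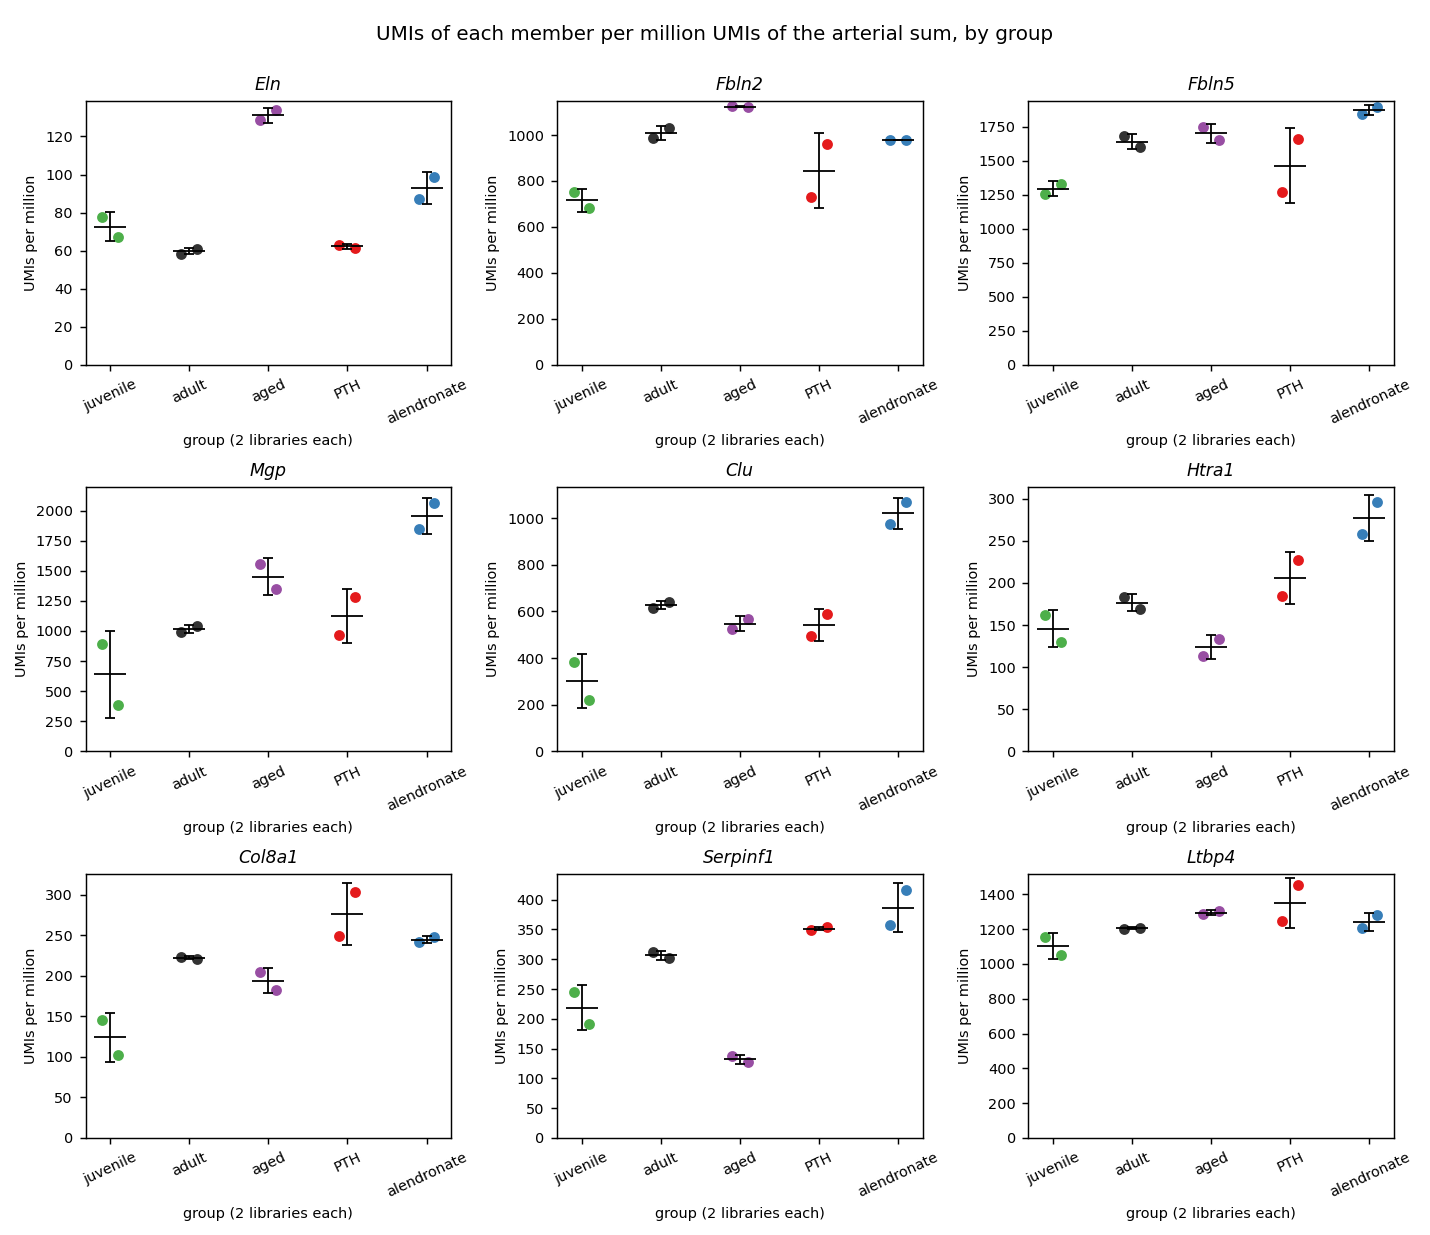
CPM of each of the 9 genes in the arterial sums, by group. Points are the 2 libraries of a group, the dash is their mean and the bars are the SD, and each axis starts at 0. Serpinf1 is lowest in the 2 aged libraries (137 and 127), and Mgp, Clu and Htra1 are highest in the 2 alendronate libraries.

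Aged arterial cells had more Eln and less Serpinf1 and Htra1 than adult ones. Eln had 128 and 134 CPM in the aged and 58.5 and 60.7 in the adult libraries (log2 fold change 1.06, SE 0.11, adjusted p = 5.90e-10). Serpinf1 had 137 and 127 against 312 and 302 (log2 fold change -1.30, SE 0.09, adjusted p = 5.27e-14), and Htra1 had 114 and 134 against 184 and 169.6 (log2 fold change -0.60, SE 0.11, adjusted p = 1.48e-05). The groups did not overlap for these 3 genes. Mgp, with 1559 and 1345 against 989 and 1038, rose by 0.44 (adjusted p = 0.0102). Clu (524 and 569) and Col8a1 (205 and 183) fell by 0.28 each (adjusted p = 0.0155 and 0.0116). Fbln2, Fbln5 and Ltbp4 were at 0.07, -0.03 and 0.02 and did not pass. These 6 calls stand against 56.1% of all genes called, so a share of 6 in 9 is near the background. Markers of other classes moved in the same aged arterial sums. The 3 Tagln/Vwf markers, of the class where Eln was highest, summed to 58.9 and 65.2 CPM in adult and 190.3 and 202 in aged libraries, and the 9 sinusoidal markers to 648 and 724 in adult and 224 and 246 in aged. The 7 mural markers summed to 99.8 and 144 in adult, with Cspg4 at 0, and 19.4 and 20.5 in aged libraries. That list includes Kcnj8, which as given above was higher in sinusoidal and metaphyseal than in arterial cells. The 6 metaphyseal markers summed to 274 and 306 in adult and 136 and 142 in aged, and the 10 haematopoietic markers to 45.8 and 48.7 in adult and 93.6 and 119 in aged. The part of these markers in the aged results was not tested.

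The aged calls of Eln, Mgp, Clu and Col8a1 were kept in 24, 17, 20 and 20 of 25 alternatives. By DESeq2 those of Mgp, Clu and Col8a1 were lost. The call of Mgp was also lost without adult replicate 1 or aged replicate 1 (log2 fold changes 0.39 and 0.33), that of Clu without adult replicate 2 or aged replicate 1 (-0.27 and -0.22) and that of Col8a1 without adult replicate 1 or aged replicate 2 (-0.29 and -0.20). When libraries were clustered without integration, Mgp turned to -0.79, Fbln2 to -0.96 and Ltbp4 to -0.82, and Eln was at 0.08 and not called. Serpinf1 was at -2.56 and Htra1 at -1.87 in that setting, and both were called in each of the 25 alternatives. The arterial class without integration was not the same set of cells. It also took in a cluster of 2940 cells led by Gm10800, Cd74 and mmu-mir-6236, whose metaphyseal markers came second to the arterial ones. Within Gkn3-led cells Eln, Serpinf1 and Htra1 were at 0.99, -1.19 and -0.74, and within Igfbp3-led cells at 0.93, -1.46 and -0.63, all called, with 34.7% and 53.4% of all genes called in these parts. Mgp was called in Igfbp3-led cells (1.06) and did not pass in Gkn3-led cells (0.14). Clu was called in Gkn3-led cells (-0.58) and did not pass in Igfbp3-led cells (-0.03). The differences between these parts were not tested.

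With PTH, 2 of the 9 genes were called in arterial cells, against 6.88% of all genes. Col8a1 had 248.9 and 304 CPM against 224 and 221 in adult (log2 fold change 0.32, SE 0.09, adjusted p = 0.0229). Fbln2 had 730.2 and 961 against 988 and 1029 (log2 fold change -0.26, SE 0.07, adjusted p = 0.0257). Both calls were lost by DESeq2. That of Col8a1 was lost without adult replicate 1, adult replicate 2 or PTH replicate 2 (log2 fold changes 0.33, 0.30 and 0.14) and that of Fbln2 without adult replicate 1, adult replicate 2 or PTH replicate 1 (-0.29, -0.24 and -0.09). Within Igfbp3-led cells, where 6.38% of all genes were called, 5 of the 9 were. Htra1 (0.65) and Col8a1 (0.36) rose, and Fbln2 (-0.29) and Fbln5 (-0.26) fell. Mgp was called at 0.72, with 205 and 376 CPM against 222 and 144 in adult, so that PTH replicate 1 lay within the adult range. Within Gkn3-led cells edgeR called none of the 9 and 1.03% of all genes, and 0 of the 9 had an unadjusted p under 0.05. The lowest and highest log2 fold changes there were -0.21 and 0.22. Over all alternatives the PTH calls of Col8a1 and Fbln2 in the whole class were kept in 18 and 19 of 25. In the arterial sums the 6 metaphyseal markers added up to 436 and 543 CPM with PTH against 274 and 306 in adult, and the 7 mural markers to 57.3 and 64.2 against 99.8 and 144, with Notch3 at 0 with PTH and Cspg4 in adult. The mural list includes Kcnj8, which as given above was higher in sinusoidal and metaphyseal cells. The part of these markers in the PTH results was not tested.

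Alendronate raised 5 of the 9 genes in arterial cells and lowered none, with 7.02% of all genes called. The median log2 fold change was 0.36 over the 9 and 0.00 over all genes. Mgp had 1850 and 2060 CPM against 989 and 1038 in adult (log2 fold change 0.97, SE 0.14, adjusted p = 1.72e-05). Clu had 975 and 1069 against 615 and 639 (log2 fold change 0.73, SE 0.09, adjusted p = 2.51e-06). Htra1 had 258 and 296 against 184 and 169.6 (log2 fold change 0.67, SE 0.09, adjusted p = 1.05e-05). The calcification inhibitor, the chaperone and the protease were thus all above the adult range in both libraries. Eln had 87.2 and 98.7 against 58.5 and 60.7 (log2 fold change 0.66, SE 0.11, adjusted p = 0.0001), also without overlap. Serpinf1 had 357 and 416 against 312 and 302 (log2 fold change 0.36, SE 0.08, adjusted p = 0.00232), a call lost without adult replicate 2 or alendronate replicate 2 (log2 fold changes 0.33 and 0.25). Fbln2 (-0.02), Fbln5 (0.21), Col8a1 (0.16) and Ltbp4 (0.07) did not pass. By DESeq2 the calls of Mgp and Clu were lost. The 3 Tagln/Vwf markers, of a class that shares Eln, Mgp and Clu with arteries, summed to 58.9 and 65.2 CPM in adult and 118 and 143 in alendronate arterial sums, with none at 0. The 7 mural markers summed to 56.2 and 73.3 with alendronate against 99.8 and 144 in adult, with Cspg4 at 0 in both, and the 10 haematopoietic markers to 78.1 and 92.4 against 45.8 and 48.7. The mural list includes Kcnj8, which as given above was higher in sinusoidal and metaphyseal cells. The part of these markers in the rises was not tested. Over all alternatives the calls of Mgp, Clu, Htra1, Eln and Serpinf1 were kept in 23, 23, 24, 23 and 21 of 25.

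Mgp, Clu, Htra1 and Eln are also the genes that differed most between the 2 parts of the arterial class, and the share of Gkn3-led cells was higher in the alendronate libraries, as given above. Within Igfbp3-led cells Mgp went from 222 and 144 CPM in adult to 365 and 616 with alendronate (log2 fold change 1.43, adjusted p = 3.43e-06). Htra1 rose by 1.18 and Clu by 1.06 (adjusted p = 2.76e-08 and 1.47e-10). Serpinf1 rose by 0.45 and Fbln5 by 0.25, and Eln, at 0.37, did not pass. Of all genes 5.52% were called in Igfbp3-led and 1.03% in Gkn3-led cells. Within Gkn3-led cells edgeR called none of the 9 and 2, Eln (0.47) and Mgp (0.41), had an unadjusted p under 0.05. Clu was at 0.11 and Htra1 at -0.13 there. Other genes moved in the Igfbp3-led sums as well. Gkn3 had 159.6 and 45.7 CPM with alendronate against 25.7 and 35.3 in adult, and Gja5 355.9 and 425 against 224 and 218. Igfbp3, with 2839 and 2449 against 2733 and 2843, overlapped, and Cxcl12 had 2645 and 2406 against 2318 and 2190. The part of these shifts in the rises was not tested, nor was the difference between the 2 parts.

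**Figure D4:**
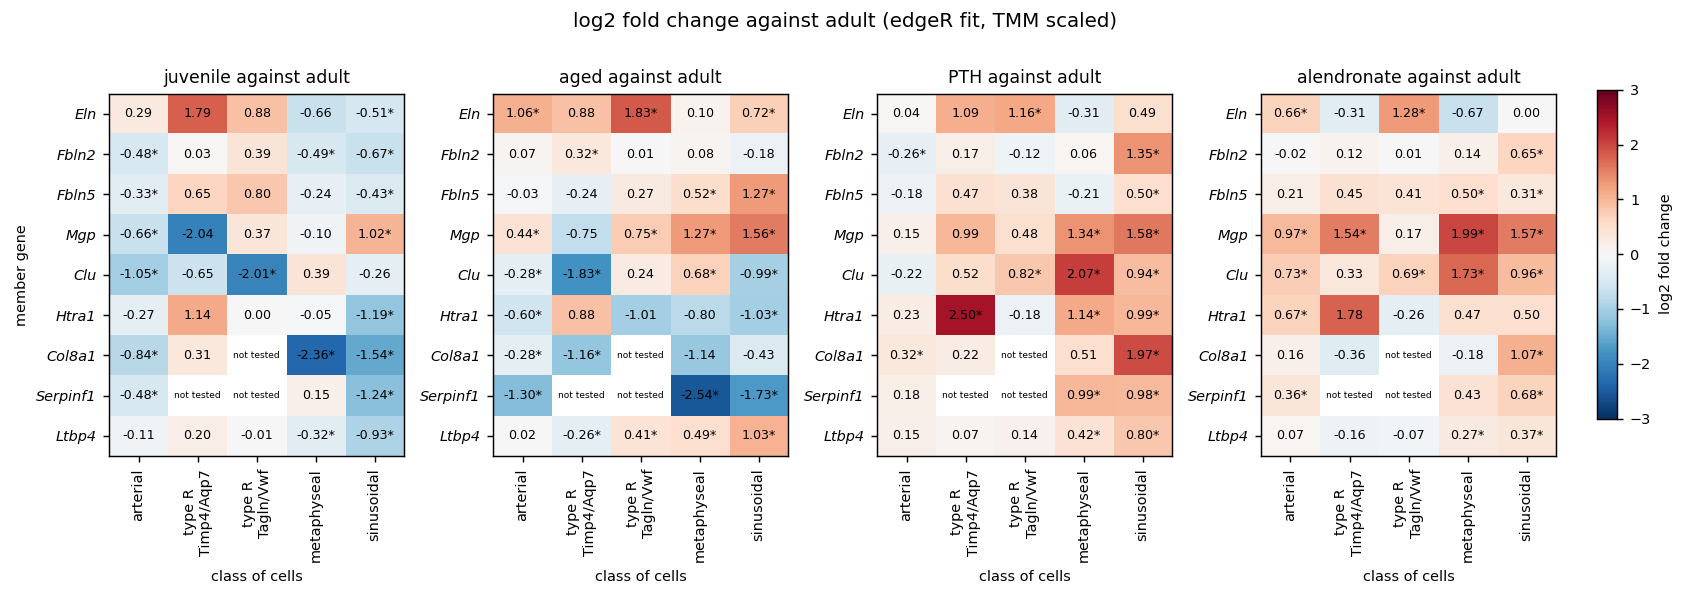
Log2 fold change against adult of each gene (rows) in 5 classes (columns), 1 panel per comparison, red for higher and blue for lower, from edgeR fits over all genes. An asterisk marks an adjusted p under 0.05, and blank cells were below the filter on low counts. With alendronate Mgp is called in arterial, Timp4/Aqp7, metaphyseal and sinusoidal cells, from 0.97 to 1.99, and Eln is called in Tagln/Vwf cells in the aged, PTH and alendronate panels.

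In type R Tagln/Vwf cells Eln passed the test in 3 of the 4 comparisons, and all 8 libraries of the other groups lay above both adult ones. It had 43.9 and 77.7 CPM in adult, 132 and 109 in juvenile, 178 and 282 in aged, 158 and 128 in PTH and 159 and 132 in alendronate libraries. The juvenile difference, 0.88, did not pass. The rise was 1.83 in aged (SE 0.25, adjusted p = 3.19e-07), 1.16 in PTH (SE 0.26, adjusted p = 0.0148) and 1.28 in alendronate libraries (SE 0.25, adjusted p = 0.00278). The PTH call was lost without adult replicate 1 or PTH replicate 1 (log2 fold changes 0.82 and 1.06) and the alendronate call without adult replicate 1 (0.94). Clu had 309.8 and 381 in adult, 122 and 68.0 in juvenile, 573 and 647 in PTH and 494 and 599 in alendronate libraries, with log2 fold changes of -2.01, 0.82 and 0.69 (adjusted p = 1.85e-05, 0.000946 and 0.00345). The PTH call was lost without adult replicate 1 (log2 fold change 0.69) and the alendronate call without adult replicate 1 or alendronate replicate 2 (0.56 and 0.55) or without integration (0.50). In aged cells Mgp rose by 0.75 and Ltbp4 by 0.41, the latter not called without aged replicate 2 (0.29) or at resolution 0.3 (0.21). With classes from marker scores Mgp was at 0.063 and Ltbp4 at 0.066, neither called. Of 7 genes tested (Col8a1 and Serpinf1 were below the filter), 1 was called in juvenile, 3 in aged, 2 in PTH and 2 in alendronate libraries, against 2.1%, 35%, 0.977% and 1.27% of all genes. Over all alternatives the calls of Eln, Mgp and Ltbp4 in aged cells were kept in 23, 21 and 20 of 23, those of Eln and Clu in 20 and 22 of 23 with PTH and 22 and 20 of 23 with alendronate, and that of Clu in juvenile cells in 23 of 23. The juvenile sums held 28 and 39 cells.

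Sums of marker lists of other cells moved with these results, but the listed genes were far from even. Over 10 libraries Comp had a mean of 37.4 CPM in Tagln/Vwf cells, the highest of the chondrocyte list, against 0.312 for Col2a1 and 0.125 for Sox9. Of the mesenchymal list Lepr had 162.7 and Dcn 29.9, against 2.45 for Col1a1, 2.13 for Col1a2 and 1.715 for Pdgfra. The 9 mesenchymal markers summed to 127 and 128 CPM in adult Tagln/Vwf cells, 324 and 399 in aged, 162 and 237 in PTH and 181 and 198 in alendronate libraries, with Lum at 0 in each of these groups. The 6 chondrocyte markers summed to 14.6 and 22.6 in adult, 62.1 and 129 in aged and 33.5 and 41.1 in PTH libraries, with Acan and Col9a1 at 0 in these groups, and the 10 haematopoietic markers to 34.1 and 55.1 in adult and 96.5 and 134 in aged libraries. The 5 lymphatic markers summed to 588 and 957 in adult, 385 and 748 in aged, 199 and 732 in PTH, 548 and 564 in alendronate and 850.4 and 6906 in juvenile libraries. Without cells that held a UMI of Col1a1, Col1a2, Dcn, Lum or Acta2, the rise of Mgp with age and that of Eln with PTH were not called, and the other 6 calls were. Over all alternatives the log2 fold change of Mgp with age ran from 0.060 to 0.92. The part of lymphatic, chondrocyte and haematopoietic cells was not tested.

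In type R Timp4/Aqp7 cells Clu was lower with age, at 17.1 and 28.9 CPM against 76.2 and 81.2 in adult (log2 fold change -1.83, SE 0.31, adjusted p = 9.15e-07), but it was not called at the other 2 clustering resolutions. Col8a1 fell by 1.16, a call lost without adult replicate 1, adult replicate 2 or aged replicate 1 (log2 fold changes -1.16, -1.17 and -0.63). Fbln2 rose by 0.32, a call lost without adult replicate 2 or aged replicate 2 (0.18 and 0.29). Ltbp4 fell by 0.26, a call lost without any 1 of 7 libraries, including each adult and aged one (-0.25, -0.30, -0.21, -0.28, -0.21, -0.24 and -0.25). With classes from marker scores Col8a1 was at 0.056 and Ltbp4 at 0.12. Alendronate raised Mgp from 16.7 and 30.5 to 55.8 and 79.3 (log2 fold change 1.54, SE 0.33, adjusted p = 0.00103), a call lost without adult replicate 1 or alendronate replicate 2 (1.17 and 1.28). PTH raised Htra1 from 7.14 and 2.54 to 42.0 and 25.8 (log2 fold change 2.50, SE 0.71, adjusted p = 0.0333), where PTH replicate 1 held 33 cells. That call was lost without any 1 of the adult and PTH libraries or without alendronate replicate 2 (log2 fold changes 3.40, 1.99, 2.36, 3.04 and 2.50). All 10 libraries together held 91 UMIs of Htra1 in this class, and its adult levels were a few CPM, so this fold is not firm. In juvenile libraries, with 46 and 31 cells, edgeR called none of 8 genes tested, and 1 had an unadjusted p under 0.05. Of all genes 3.08% were called in juvenile, 47.1% in aged, 2.64% in PTH and 2.37% in alendronate libraries. The 3 Tagln/Vwf markers summed to 126 and 183 CPM in adult, 656 and 750.1 in aged, 321 and 454 in PTH and 266 and 324 in alendronate Timp4/Aqp7 cells. The 6 metaphyseal markers there summed to 1095 and 1270 in adult, 300 and 336 in aged, 1224 and 1250 in PTH and 772 and 807 in alendronate libraries, and the 9 sinusoidal markers to 414 and 457 in adult and 237 and 248 in aged ones. Of the metaphyseal list Aplnr was highest in Timp4/Aqp7 cells, with a mean of 638.8 CPM over 10 libraries, against 110.7 for Lamb1 and 49.9 for Ramp3. The study describes Aplnr as a gene of both type R and metaphyseal cells. The part of these markers in the Timp4/Aqp7 results was not tested. Over all alternatives the aged calls of Clu, Fbln2, Col8a1 and Ltbp4 were kept in 21, 17, 15 and 6 of 23, that of Mgp with alendronate in 18 of 23 and that of Htra1 with PTH in 13 of 21.

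Whether a change differed between arterial and Timp4/Aqp7 cells was tested as an interaction, with the library as a block. Only the aged difference of Clu was called, at 1.62 (SE 0.31, adjusted p = 3.37e-05). In the fits by class Clu fell by 0.28 in arterial and by 1.83 in Timp4/Aqp7 cells. At resolution 0.8 the difference was -0.0051, and it was not called at that resolution, at resolution 0.3, by DESeq2, without integration or with classes from marker scores. In juvenile, PTH and alendronate libraries edgeR called none, with 1, 4 and 0 genes at an unadjusted p under 0.05. Of all genes 0.767% were called in juvenile, 4.1% in aged, 0.834% in PTH and 0.911% in alendronate libraries.

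In sinusoidal cells, where the 9 genes were low, most were higher with either treatment. PTH raised 8 of 9, all but Eln, with 9.41% of all genes called. Alendronate raised 7 of 9, all but Eln and Htra1, with 19% called. Serpinf1 and Clu were below their haematopoietic levels in both libraries of each treatment, and Col8a1 was at a few CPM, so their folds are not firm. With PTH Serpinf1 had 6.72 and 6.87 CPM against 49.97 and 63.2 in haematopoietic cells. Clu had 23.5 and 17.1 against 40.9 and 59.8, and Col8a1 6.385 and 4.28 against 3.03 and 5.98. Mgp had 56.8 and 84.4 CPM with PTH and 66.5 and 77.9 with alendronate against 25.8 and 23.7 in adult (log2 fold changes 1.58 and 1.57, SE 0.13 and 0.12). Fbln2 had 36.0 and 29.0 with PTH and 17.4 and 19.6 with alendronate against 11.8 and 12.3 (log2 fold changes 1.35 and 0.65). In haematopoietic cells Fbln2 had 27.3 and 13.7 with PTH, 18.9 and 14.6 with alendronate and 14.0 and 19.1 in adult. Its adult sinusoidal levels lay below the adult haematopoietic ones, so its folds are not firm either. Ltbp4 had 100.5 and 93.2 with PTH and 66.2 and 70.8 with alendronate against 55.7 and 52.6 (log2 fold changes 0.80 and 0.37). The treated and adult libraries did not overlap in these 3 genes. In aged sinusoidal cells Fbln5 had 195 and 179 against 56.5 and 60.7 (log2 fold change 1.27, SE 0.07, adjusted p = 3.59e-18). Mgp (1.56), Ltbp4 (1.03) and Eln (0.72) also rose with age, with 66.3% of all genes called. Clu, Htra1 and Serpinf1 passed the test as lower, at -0.99, -1.03 and -1.73. Clu had 7.25 and 5.78 CPM against 9.23 and 10.46 in adult, and Serpinf1 1.295 and 1.38 against 3.20 and 3.59. Both lay below their haematopoietic means of 30.8 and 35.9, and Htra1 was at a few CPM, levels too low for firm folds. In juvenile cells 7 genes were lower, among them Ltbp4 at 25.2 and 30.9 (log2 fold change -0.93), and Mgp was higher at 45.3 and 54.1 (log2 fold change 1.02), with 38.2% of all genes called. Of these 7, Serpinf1 had 1.53 and 1.28 CPM in juvenile libraries, Htra1 1.89 and 2.75 and Eln 5.04 and 4.94. Fbln2 had 8.02 and 6.95, below 10.2 and 18.6 in juvenile haematopoietic cells. These levels are too low for firm folds.

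Markers of other EC classes moved in the same sinusoidal sums. The 8 arterial markers summed to 49.0 and 51.5 CPM in adult, 121 and 136 with PTH, 66.3 and 79.6 with alendronate, 36.6 and 46.1 in aged and 23.5 and 25.7 in juvenile libraries. The treated sums thus lay above adult, as most of the 9 genes did, and the juvenile sums below it. The 3 Tagln/Vwf markers summed to 15.3 and 17.2 in adult, 170.5 and 176 in aged, 36.3 and 37.3 in PTH and 32.2 and 36.5 in alendronate libraries. The 5 lymphatic markers summed to 148 and 153 in adult and 328 and 361 in aged libraries, with Pdpn at 0 in both groups. Of the lymphatic list Mmrn1 had a mean of 174.7 CPM in sinusoidal cells over 10 libraries, against 4.79 for Prox1, 2.17 for Ccl21a and 1.14 for Lyve1. The part of these markers in the sinusoidal results was not tested.

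The sinusoidal calls of Mgp, Fbln5 and Ltbp4 were kept in every alternative, while the following calls were lost without 1 library. With PTH, Htra1 (0.99) and Serpinf1 (0.98) were not called without adult replicate 1 or PTH replicate 2 (log2 fold changes 0.68 and 0.78 for Htra1, 0.90 and 0.96 for Serpinf1). With alendronate, Serpinf1 (0.68) was not called without either adult library or alendronate replicate 2 (0.60, 0.76 and 0.37), nor Col8a1 (1.07) without either adult, either aged or the second alendronate library (0.75, 1.45, 1.07, 1.07 and 0.54). In aged cells Eln was not called without aged replicate 2 (0.44), nor Htra1 without adult replicate 2 or aged replicate 1 (-0.67 and -0.79). In juvenile cells Eln (-0.51) was not called without any 1 of the juvenile and adult libraries (-0.52, -0.49, -0.53 and -0.49), nor Col8a1 (-1.54) without juvenile replicate 1 or adult replicate 2 (-1.12 and -1.16). Without integration the juvenile calls of Fbln2 (-0.17) and Serpinf1 (-0.69) and the aged call of Eln (0.35) were also lost. The least stable of these calls was that of Col8a1 with alendronate, kept in 10 of 22 alternatives, with log2 fold changes from 0.54 to 1.47, followed by Serpinf1 with alendronate (15 of 23) and Eln in juveniles (16 of 23). The others named here were kept in 18 to 22 of 23. Sinusoidal Col8a1 had 1.75 and 3.38 CPM with alendronate, 0.942 and 1.54 in adult and 0.270 and 0.549 in juvenile libraries. Beside its haematopoietic mean of 4.37 these levels are too low for a firm fold.

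In metaphyseal cells Clu and Mgp changed most with the treatments. Clu had 27.7 and 41.04 CPM with PTH and 25.9 and 29.7 with alendronate against 7.29 and 9.95 in adult (log2 fold changes 2.07 and 1.73, SE 0.19 and 0.21). Mgp had 36.5 and 53.9 with PTH and 78.8 and 66.3 with alendronate against 16.0 and 21.4 (log2 fold changes 1.34 and 1.99). The treated libraries were above both adult ones in both genes. In haematopoietic cells Clu had 40.9 and 59.8 with PTH, 29.1 and 35.2 with alendronate and 20.3 and 25.7 in adult, above metaphyseal cells in each library, so its folds are not firm. Ltbp4 rose by 0.42 with PTH and 0.27 with alendronate, PTH raised Htra1 by 1.14, and alendronate raised Fbln5 by 0.50. Serpinf1 passed the test as higher with PTH (0.99), at 10.4 and 10.3 CPM. That is too low for a firm fold beside 49.97 and 63.2 in haematopoietic cells. In aged cells Mgp, Clu, Fbln5 and Ltbp4 rose by 1.27, 0.68, 0.52 and 0.49, and Serpinf1 passed the test as lower, at 1.36 and 0.610 CPM against 4.61 and 5.61 in adult, levels too low for a firm fold. In juvenile cells Fbln2 and Ltbp4 fell by 0.49 and 0.32, and Col8a1 passed the test as lower, at 0.493 and 1.05 CPM against 2.43 and 5.87 in adult, again too low for a firm fold beside its mean of 4.37 in haematopoietic cells. These 5 calls with PTH, 4 with alendronate, 5 in aged and 3 in juvenile cells stand against 14.4%, 11.7%, 61.4% and 27.3% of all genes. Not called without 1 library were Htra1 with PTH (adult replicate 2 or PTH replicate 2, log2 fold changes 0.81 and 0.73), Serpinf1 with PTH (adult replicate 1 or PTH replicate 2, 0.86 and 1.00) and Ltbp4 with alendronate (alendronate replicate 1, 0.25). The same held for Clu in aged cells (adult replicate 1 or aged replicate 1, 0.45 and 0.53) and Col8a1 in juvenile cells (juvenile replicate 1 or adult replicate 2, -1.92 and -1.61).

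Several metaphyseal calls also rested on how the class was drawn. Without integration and with classes from marker scores Fbln5 was at 0.046 and 0.14 with alendronate and was not called. Ltbp4 was at 0.12 and 0.050 in aged, 0.064 and 0.24 in alendronate and -0.15 and -0.042 in juvenile cells in these 2 settings, and was not called either. Serpinf1 with PTH was at 0.57 and 0.77 and not called, nor was it by DESeq2. Htra1 with PTH was not called by DESeq2 or with marker scores (0.83). In aged cells Fbln5 was at -0.019 and not called without integration, and turned to -0.39, a called fall, with marker scores. Aged Clu was at -1.27 without integration and was not called there, by DESeq2 or at resolution 0.8. Aged Mgp was at -0.14 with marker scores and was not called, nor was aged Serpinf1 without integration. Over all alternatives the calls of Clu, Mgp, Ltbp4, Htra1 and Serpinf1 with PTH were kept in 23, 23, 23, 19 and 18 of 23, and those of Clu, Mgp, Ltbp4 and Fbln5 with alendronate in 23, 23, 20 and 21 of 23. Those of Mgp, Clu, Fbln5, Ltbp4 and Serpinf1 in aged cells were kept in 22, 17, 21, 21 and 22 of 23, and in juvenile cells those of Fbln2 and Ltbp4 in 23 and 21 of 23 and that of Col8a1 in 20 of 22. The 8 arterial markers in the metaphyseal sums added up to 335 and 348 CPM in adult, 512 and 572 in aged, 453 and 497 in PTH, 423 and 454 in alendronate and 178 and 194 in juvenile libraries. The 3 Tagln/Vwf markers added up to 12.8 and 17.0 in adult, 71.3 and 79.9 in aged, 21.3 and 22.7 in PTH and 29.5 and 42.5 in alendronate libraries. Their part in the metaphyseal results was not tested.

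Other values moved with these low levels. Arterial cells made up 11.7% and 11.9% of the named ECs in adult libraries, 19.1% and 21.1% with PTH, 17.5% and 17.8% with alendronate, 27.5% and 26.8% in aged and 5.73% and 6.10% in juvenile libraries. In the haematopoietic cells of the same libraries Mgp had 11.9 and 17.6 CPM in adult, 43.9 and 31.6 with PTH, 25.2 and 31.7 with alendronate, 48.0 and 34.5 in aged and 47.5 and 18.6 in juvenile libraries. Clu there had 20.3 and 25.7 in adult, 40.9 and 59.8 with PTH and 29.1 and 35.2 with alendronate, and Ltbp4 had 26.6 and 19.9, 62.1 and 47.0 and 31.0 and 32.2. Fbln5 had 9.80 and 16.9 in adult, 57.5 and 18.8 with PTH, 21.8 and 23.6 with alendronate, 40.9 and 19.6 in aged and 30.5 and 23.2 in juvenile haematopoietic cells. Levels of these 4 genes in haematopoietic cells were thus above adult with both treatments, in both libraries each. Those of Mgp and Fbln5 were above adult in both aged and both juvenile libraries too. Serpinf1 there had 41.3 and 39.7 in adult, 49.97 and 63.2 with PTH and 47.5 and 37.7 with alendronate. It had 13.4 and 17.6 in aged and 20.35 and 27.8 in juvenile libraries. Whether haematopoietic cells hold these transcripts themselves was not tested. The part of free RNA in the sinusoidal and metaphyseal results was not tested.

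Genes of related functions, in lists chosen with earlier results of these data known, were read from the same arterial fits. Of 17 listed genes of elastic fibre assembly 7 were tested. In juvenile cells 2 rose and none fell: Mfap2, of a microfibril-associated glycoprotein, had 52.7 and 70.2 CPM against 20.4 and 19.6 in adult (log2 fold change 1.64), and the fibrillin gene Fbn1 was at 0.74. Fbn1 rose in all 4 comparisons, from 38.5 and 38.1 in adult to 69.9 and 57.7 in juvenile, 108 and 92.5 in aged, 66.4 and 63.2 in PTH and 62.5 and 71.8 in alendronate libraries. In aged cells 3 rose, with Emilin1 at 0.37, and 1 fell, Mfap2 (log2 fold change -3.60). Fbn1 was the 1 gene called with PTH, and with alendronate it rose and Mfap2 fell by 0.77. List medians were 0.74, 0.011, 0.20 and 0.053 in the order juvenile, aged, PTH and alendronate, where 14.5%, 56.1%, 6.88% and 7.02% of all genes were called, against medians of all genes between -0.0169 and 0.000615.

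Of 10 tested vessel wall collagens and proteoglycans, 7 rose and 1 fell in juvenile arterial cells (list median 0.93), against 14.5% of all genes called. Col5a2, of fibrillar collagen V, had 136 and 95.4 CPM against 33.1 and 49.2 (log2 fold change 1.51). Hspg2, the perlecan gene, had 719.6 and 696 against 283 and 249.3 (1.42) and Col18a1, of a basement membrane collagen, 1023 and 927 against 435 and 463 (1.13). With PTH 7 rose and none fell (median 0.42), against 6.88% of all genes, led by Col5a2 (0.82), Col15a1 (0.78) and Col18a1 (0.70). In aged cells 2 rose and 5 fell (median -0.23), which with 56.1% of all genes called is not far from the background. Sparc, of a collagen-binding glycoprotein, had 2301 and 2154 in aged and 5620.3 and 5648 in adult cells (-1.42), Vwa1 was at -0.89 and Bgn, the biglycan gene, at -0.60. With alendronate 2 rose, Col5a2 (1.19) and Sparcl1 (0.65), and 2 fell, with Sparc at -0.30 (median -0.019), against 7.02% of all genes.

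Of 15 tested genes of TGF-beta storage and signalling, 3 rose and 2 fell in juvenile cells (median 0.17, 14.5% of all genes called), with the receptor genes Tgfbr2 at 0.61 and Eng at 0.34 and the ligand gene Tgfb2 at -0.48. In aged cells 6 rose and 3 fell (median 0.33), a share near the 56.1% of all genes called. Smad7, of an inhibitor of the pathway, had 494 and 467 CPM against 149.6 and 165 (1.53), the related inhibitor gene Smad6 was at 0.44 and the ligand gene Tgfb1 at -0.68. With alendronate 2 fell, Tgfb2 (-0.53) and Tgfb1 (-0.25), against 7.02% of all genes (median 0.075). With PTH 1 rose, Thbs1 (2.67), at a mean under 20 CPM and named after its value was seen (median -0.015), against 6.88% of all genes.

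Of 9 tested genes of calcification control and the vitamin K cycle, 3 fell and none rose in juvenile cells (median -0.35), against 14.5% of all genes called. Alpl, the alkaline phosphatase that favours mineral, had 26.4 and 16.8 CPM against 122 and 109 (-2.42), and Gas6, which like Mgp encodes a vitamin K-dependent protein, 132 and 139 against 316 and 348 (-1.27). In aged cells 2 rose and 4 fell (median 0.0096), a share near the 56.1% of all genes called, with Alpl at 0.81, the ligand gene Bmp2 at -0.86 and Vkorc1, of the enzyme that recycles vitamin K, at -0.74. With PTH 1 rose, Bmp2 (0.49), and 2 fell, with Gas6 at -0.41 (median 0.12), against 6.88% of all genes. With alendronate, where Mgp rose, Gas6 was the 1 gene of the list called, at -0.24 (median 0.0034), against 7.02% of all genes.

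Of 6 other serpins and HtrA proteases tested, 2 rose in juvenile cells (median 0.073), 1 rose and 2 fell in aged (0.54), 2 rose with PTH (0.28), and 3 rose and 1 fell with alendronate (0.50). Of all genes 14.5%, 56.1%, 6.88% and 7.02% were called in these 4 comparisons, so the 3 of 6 in aged cells lie below the background. Serpinh1, of the collagen chaperone, had 1227 and 1160.4 CPM in juvenile, 677 and 641 in adult and 302 and 296 in aged cells, so that it rose by 0.87 and fell by 1.22, was at 0.21 with PTH and fell by 0.32 with alendronate. The intracellular serpin genes Serpinb9 and Serpinb6a were at 0.90 and -0.16 in aged cells, Serpinb6a rose by 0.24 with PTH and Serpinb9 by 0.45 with alendronate. Serping1, of the complement C1 inhibitor, rose by 1.04 with alendronate, from 23.1 and 18.6 to 38.8 and 46.1.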

How the data were processed

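The authors deposited UMI counts, 1 table per library with a whole-number count for each gene symbol and cell, without normalization, for 10 libraries. By the submitters' processing notes and methods, the authors ran UMI-tools 1.1.2, STAR 2.7.10a on mm10 and featureCounts 2.0.3 of Subread. The annotation release and strand setting are not given in the sources used here. Each table holds 1 sample, and the labels of the samples gave its group and replicate number. The bones of several mice of a group were pooled by the methods.

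Here symbols beginning with U (276, in aged tables only) were dropped, and cells with 500 to 6000 genes and under 25% mitochondrial UMIs were kept. Any 2 libraries shared few cell barcodes, at most 1.36% of the smaller library. Cells were integrated by Seurat 5.3.0 anchors (R 4.3.3) with the adult libraries as reference, 2000 variable features, 30 principal components and resolution 0.5. The 9 genes were among 178 held out of the variable features. Clusters were named by markers, and no doublet caller was run. The level of a gene is its CPM in the sum over the cells of a class in a library (at least 20 cells), by the plain total of that sum.

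Sums were tested with edgeR 4.0.16 (quasi-likelihood, TMM factors, filterByExpr, all 10 libraries in 1 fit per class, group as the only term) and Benjamini-Hochberg adjusted p over all genes. The difference between arterial and type R Timp4/Aqp7 changes was an interaction with the library as a block. On counts simulated for the aged comparison, with 200 of the genes changed by 2-fold, 159 of 200 were recovered among 11176 arterial genes, 128 of 200 among 8096 Timp4/Aqp7 genes, and 89 of 200 among 7334 genes for the interaction, whose own test ran on a larger set of 10429 genes, so that this last count is not the recovery of that test. Differences between replicate libraries, summed over all cells, were 2.21 to 4.79 in chi-square per gene, above counting noise. These values also hold differences in the mix of cells, so they do not show that the libraries are separate replicates. Each library was counted as 1 sample. DESeq2 1.42.0 was an alternative. Python 3.11.15 with pandas 2.3.3 and scipy 1.17.1 did the rest.

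Alternatives covered scaling, filters, the replicate block, leaving out each library, other clusterings and, added after seeing the data, plain totals, the 2 parts of the arterial class and leaving out the 5% of cells with most UMIs. The 9 genes, the marker and gene lists and the tests were chosen with earlier results of these data known. Named beside the 9 genes were up to 3 called genes per list and comparison with the largest change in arterial cells (mean level 20 CPM or more), and the 3 genes most like each of the 9 in profile.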

Additional observations from a re-analysis of the deposited data

Results flagged for a closer look

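The changes of Clu with age differed between arterial and type R Timp4/Aqp7 cells by 1.62 on the log2 scale in the interaction test. That call was kept in 18 of 23 alternatives, with values from -0.0051 to 1.98, and was lost by DESeq2, at resolutions 0.3 and 0.8, without integration and with classes from marker scores.

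In 4 cases every library of a group lay above adult in some classes and below adult in others, with a call in each class named, and the difference between the classes was not tested. With PTH, Fbln2 was at -0.26 in arterial and 1.35 in sinusoidal cells, where its adult levels lay below the adult haematopoietic ones. In juvenile libraries, Mgp was at -0.66 in arterial and 1.02 in sinusoidal cells. In aged libraries, Clu was at -0.28 in arterial, -1.83 in Timp4/Aqp7 and -0.99 in sinusoidal cells but at 0.68 in metaphyseal cells. The metaphyseal call was kept in 17 of 23 alternatives and the value was -1.27 without integration. Sinusoidal and metaphyseal means of Clu, 12.7 and 19.5 CPM, lay below the haematopoietic mean of 30.8. Aged Ltbp4 was at -0.26 in Timp4/Aqp7 cells but at 0.41 in Tagln/Vwf, 0.49 in metaphyseal and 1.03 in sinusoidal cells, and the Timp4/Aqp7 call was kept in 6 of 23 alternatives and turned to 0.12 with classes from marker scores.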

How the results depend on the processing

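Of 81 calls of a gene in a class and comparison (the interaction included), 31 were kept in every alternative that gave a value, among them Clu in juvenile and Serpinf1 and Htra1 in aged arterial cells. The 8 genes with the highest mean in arterial cells kept it under all 7 alternatives of the classes and filters. Of the 9 genes in arterial cells, 6 were called in juvenile libraries, but 3 with classes from marker scores and 2 within Gkn3-led cells. In aged libraries 6 were called, but 3 by DESeq2. With PTH 2 were called, but 0 by DESeq2, 0 without the filter on low counts, 0 within Gkn3-led and 5 within Igfbp3-led cells, 4 with classes from marker scores and 1 without the 5% of cells with most UMIs. With alendronate 5 were called, but 3 by DESeq2 and 0 within Gkn3-led cells. Leaving out 1 library at a time gave 4 to 6 in juvenile, 4 to 6 in aged, 0 to 3 with PTH (0 without either adult library) and 4 to 6 with alendronate. The number of all genes called in arterial cells moved as well. It was 1615 in juvenile, 6272 in aged, 769 with PTH and 784 with alendronate, against 886, 4594, 311 and 326 by DESeq2 and 178, 2835, 84 and 84 within Gkn3-led cells. With PTH it was 589 without the filter, 677 within Igfbp3-led cells, 811 with marker scores and 713 without the 5% of cells with most UMIs, and 459 and 421 without adult replicate 1 or 2. In juvenile libraries it was 1150 with marker scores. In the other 4 classes together the main fits made 12 calls of the 9 genes in juvenile, 19 in aged, 16 with PTH and 14 with alendronate. The shares of all genes called in each class are given above. These numbers of calls moved when 1 library was left out.

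Without integration these aged log2 fold changes turned: in arterial cells Fbln2 -0.96, Mgp -0.79 and Ltbp4 -0.82, in metaphyseal cells Fbln2 -0.72, Fbln5 -0.019 and Clu -1.27, and in the interaction Fbln5 -1.28 and Ltbp4 -0.52. With classes from marker scores, Fbln2 turned to -0.47 in juvenile Timp4/Aqp7 cells. In aged Timp4/Aqp7 cells Htra1 turned to -1.68, Col8a1 to 0.056 and Ltbp4 to 0.12, and in aged metaphyseal cells Fbln2 turned to -0.49, Fbln5 to -0.39 and Mgp to -0.14. Within Gkn3-led cells Fbln5 turned to 0.25 in juvenile and Htra1 to -0.13 and Serpinf1 to -0.038 in alendronate libraries. At resolution 0.8 the aged interaction of Clu was -0.0051. The arterial class without integration took in a further cluster, as given above. The causes were not tested.

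The replicate numbers give no pairing: the differences between replicates 1 and 2 over the genes in arterial cells correlated between groups at only -0.0188 to 0.0486. With the number as a replicate block, 6, 6, 2 and 6 genes were called in arterial cells and 12, 19, 16 and 13 in the other 4 classes (juvenile, aged, PTH, alendronate). The replicate block added Fbln5 in alendronate arterial cells (0.21, edgeR adjusted p = 0.0494) and Htra1 in aged Tagln/Vwf cells (-1.02, edgeR adjusted p = 0.0416), and ended Ltbp4 in aged Timp4/Aqp7 and Col8a1 in alendronate sinusoidal cells (both edgeR adjusted p = 0.0526). Plain totals moved the median of all genes by 0.40 in aged sinusoidal, 0.18 in aged metaphyseal and 0.11 in aged Tagln/Vwf cells. The type R sums of juvenile libraries held 28 to 46 cells and the Timp4/Aqp7 sum of PTH replicate 1 held 33, which limits their precision.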
